A study of Mus musculus with 8 samples.

Results

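Nuclear receptors are transcription factors that bind DNA as monomers, homodimers or heterodimers and whose activity is set by small lipophilic ligands or by coregulator proteins. In the liver they link fasting, bile acids, sterols, drugs and steroid hormones to the genes of metabolism. Many of them act on DNA only as a heterodimer with the retinoid X receptor, and Ppargc1a, which encodes the coactivator PGC-1α and is itself no receptor, docks on several of them during fasting to raise transcription of gluconeogenic and oxidative genes.

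The genes described here are 10 transcripts picked by symbol: Ppara, Pparg, Ppargc1a, Nr1i2, Nr1i3, Nr1h3, Hnf4a, Rxra, Nr3c1 and Esr1. Each matched 1 of the 35275 Ensembl genes in the tables. RNA sequencing was done on liver from 4 control mice, labelled WT and described by the study as littermates with floxed Pcx alleles (Pcx f/f), and from 4 Pcx L-/- mice, in which the same floxed alleles are removed by Cre under the albumin promoter and so in hepatocytes only. All 8 mice were C57BL/6 males, 9 weeks old and fasted for 24 h. Pcx encodes pyruvate carboxylase, which makes oxaloacetate from pyruvate for gluconeogenesis and for refilling the citric acid cycle. The comparison asks how the fasted liver transcriptome differs when hepatocytes lack the enzyme.

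The genotype labels were checked on Pcx itself, at 14371 to 22059 normalized counts in the controls and 556 to 758 in the Pcx L-/- livers, or 3.6% of the control level. A normalized count is a read count scaled to a common effective library size, and the libraries held 12016242 reads (control replicate 4) to 20023108 reads. Hepatocyte markers summed to 1770931 to 2270529 normalized counts in controls and 1012202 to 1554255 in Pcx L-/- livers, without overlap. These transcripts were thus abundant in every library. Of the 7 markers tested, 3 were lower in Pcx L-/- livers by edgeR, 5 by DESeq2 and 1 by limma. None was higher by edgeR, DESeq2 or limma (0 also at an unadjusted p under 0.05). Bulk tissue cannot tell fewer cells of a type from less RNA per cell. Differences were tested with edgeR's quasi-likelihood F test over 13168 genes that passed a filter on low counts, with Benjamini-Hochberg adjustment over all of them and a threshold of 0.05. All 10 transcripts passed the filter. Across all genes tested, 27.6% passed the threshold, 14.1% higher and 13.5% lower in Pcx L-/- liver.

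To show the sequences that lie before the start of the transcripts discussed below, stretches upstream of the annotated start were read from the RefSeq promoter table of GRCm38.p6, for 9 of the 10 genes in 15 windows of 250 bases. The stretches of Pparg (the 1 receptor that was higher in Pcx L-/- liver), Nr1i3 (the receptor with the largest decrease among the 10) and Ppargc1a (the coactivator) are printed 5′ to 3′ on the gene's strand, each ending before the first annotated exon base. The first lies before the 2nd of 3 annotated Pparg starts, at chr6:115362099-115362291 on the plus strand. That of Nr1i3 is at chr1:171213720-171213969 on the plus strand and that of Ppargc1a at chr5:51567727-51567975 on the minus strand. Capitals mark the motif matches described after the sequences.
Pparg: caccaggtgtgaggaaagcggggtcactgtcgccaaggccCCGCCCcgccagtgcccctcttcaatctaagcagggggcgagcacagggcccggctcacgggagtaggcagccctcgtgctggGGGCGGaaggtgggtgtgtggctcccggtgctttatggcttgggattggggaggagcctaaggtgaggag
Nr1i3: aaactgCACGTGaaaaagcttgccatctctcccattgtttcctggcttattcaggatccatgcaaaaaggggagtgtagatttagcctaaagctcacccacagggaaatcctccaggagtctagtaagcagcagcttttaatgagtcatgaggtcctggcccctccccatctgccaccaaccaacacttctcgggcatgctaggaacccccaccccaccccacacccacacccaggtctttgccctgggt
Ppargc1a: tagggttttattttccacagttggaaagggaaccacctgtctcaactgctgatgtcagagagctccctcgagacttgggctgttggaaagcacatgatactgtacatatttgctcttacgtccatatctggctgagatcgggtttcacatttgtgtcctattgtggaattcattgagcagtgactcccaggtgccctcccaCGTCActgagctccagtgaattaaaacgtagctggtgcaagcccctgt

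Letters of 7 motifs were searched on both strands of each window. The Pparg stretch held the GC box GGGCGG at 2 places, at positions -210 to -205 and -127 to -122 counted from the start, letters that 32.7% of all 32851 RefSeq windows hold. The Nr1i3 stretch held the E-box CACGTG at -244 to -239, present in 6.02% of windows. The Ppargc1a stretch held TGACG, the short form of the cAMP response element, at -49 to -45 on the opposite strand, present in 17.8% of windows. It did not hold the full element TGACGTCA, which contains the short form and is in 1.55% of windows. The nuclear receptor half-site AGGTCA (14.0% of windows), its direct repeat with 1 base between the copies AGGTCANAGGTCA (0.0335%) and the TATA box TATAAA (12.4%) were not in these 3 stretches. The Pparg stretch ends before the start, however, and the rest of the same window, not printed here, held a TATA box at -29 to -24 and a half-site at -9 to -4. The window of the first Pparg start held a half-site at -28 to -23, and that of the 3rd start held none of the 7 motifs. Among the other genes, the window of the 2nd Rxra start held half-sites at -87 to -82 and -48 to -43. A match describes the letters only and says nothing of binding.

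Of the 10 transcripts, 1 was higher (Pparg) and 3 were lower (Nr1i3, Ppara and Nr3c1) in Pcx L-/- liver, and 6 did not pass the threshold. Called transcripts were thus 4 of 10, beside 27.6% of all genes. The DESeq2 Wald test also gave 1 higher and 3 lower, beside 13.4% and 13.9% of all genes. The log2 fold change, Pcx L-/- over control, was below 0 for 9 of 10, beside 50.6% of all genes, and its median was -0.47, beside -0.01. Values of the 4 control and 4 Pcx L-/- mice did not overlap for Pparg (higher; 15.1% of all genes) and for Ppara (lower; 12.5% of all genes). The scaling moved these values. With counts scaled by library size alone, the median of the 10 was -0.18 while that of all genes was 0.28, and 2 of the 10, Pparg and Nr1i3, passed the threshold, beside 36.3% of all genes.

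**Figure D1:**
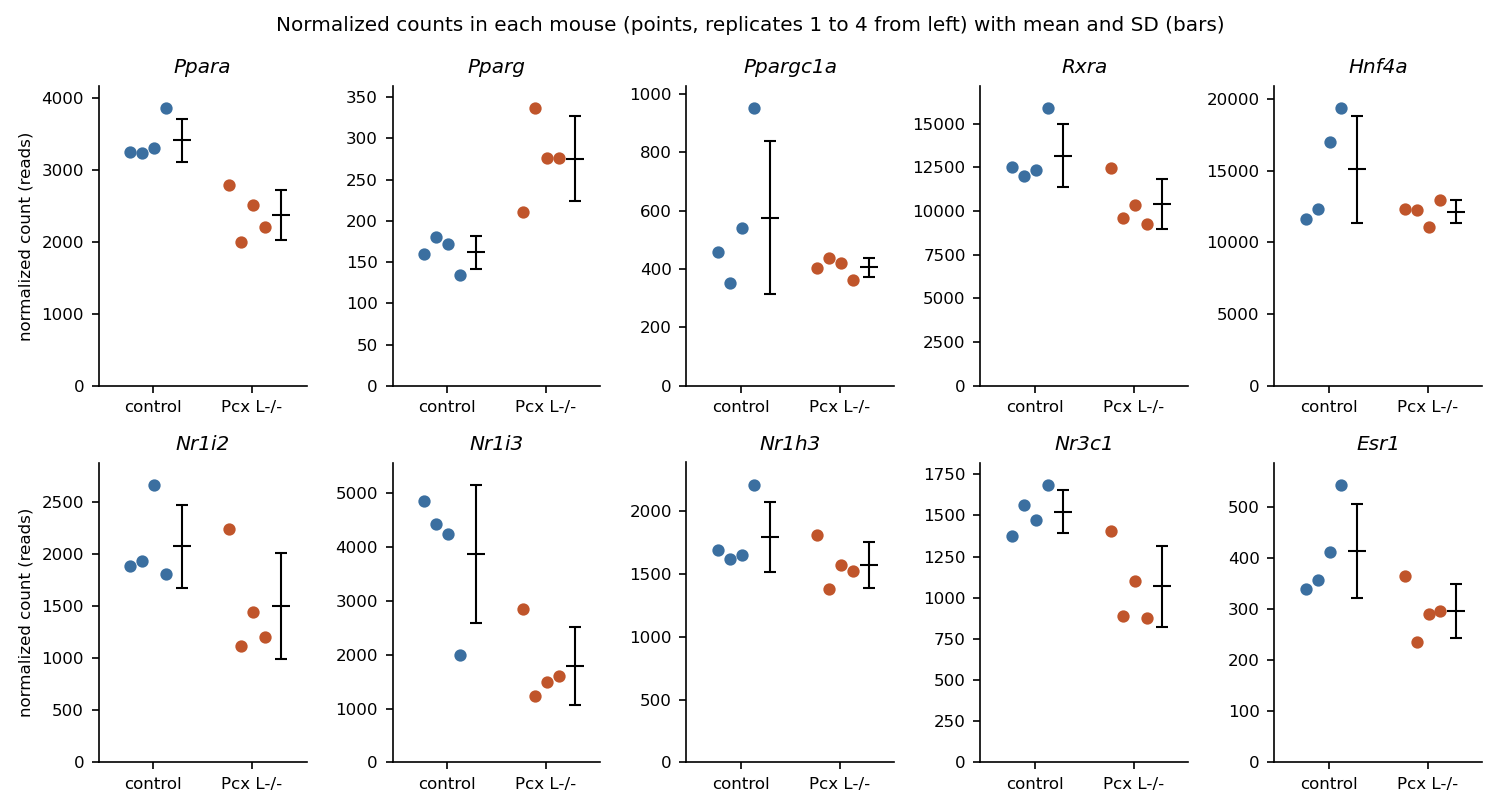
Normalized counts of the 10 transcripts, 1 panel each, with the 4 control mice (blue) and the 4 Pcx L-/- mice (orange) as points in replicate order and bars for the mean ± SD. The vertical axes start at 0 and differ between panels; the points of the genotypes do not overlap for Ppara and Pparg, and control replicate 4 or Pcx L-/- replicate 1 stands apart in several panels.

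Ppara encodes PPARα, the fatty acid-activated receptor that switches on mitochondrial and peroxisomal fatty acid oxidation and ketogenesis in fasting. Its gene lies at chr15:85734983-85802819 (GRCm38, plus strand). Normalized counts of Ppara in control replicates 1 to 4 were 3249, 3238, 3301 and 3858, and in Pcx L-/- replicates 1 to 4 they were 2794, 1999, 2516 and 2208. Every control mouse was above every Pcx L-/- mouse, and control replicate 4 was the highest. Ppara fell by 0.52 on the log2 scale (SE 0.13, n = 4 per genotype, edgeR adjusted p = 0.0137), to 69.8% of control. The call was lost without Pcx L-/- replicate 4 (edgeR adjusted p = 0.0534) and with library-size scaling (log2 fold change -0.24, adjusted p = 0.107).

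Pparg (chr6:115360951-115490399, plus strand) encodes PPARγ, the adipogenic paralogue that drives lipid droplet and fatty acid uptake genes and is low in normal liver. Its normalized counts were 160.2, 181, 172 and 134 in the controls and 211, 337, 277 and 277 in the Pcx L-/- livers. The lowest Pcx L-/- mouse, replicate 1, was above the highest control. Pparg rose by 0.76 (SE 0.16, n = 4 per genotype, edgeR adjusted p = 0.00578), or 1.70-fold, and it was past the threshold under each of the 19 alternatives run, with log2 fold changes between 0.65 and 1.06. Adipocytes express Pparg strongly, and the adipocyte markers Adipoq, Plin1, Lep, Cfd, Retn and Fabp4 summed to 66.2 to 181 normalized counts in controls and 106 to 146 in Pcx L-/- livers. Of these 6 markers 1, Fabp4, passed the filter on low counts, at a log2 fold change of -0.04 (SE 0.25, edgeR adjusted p = 0.931), and Adipoq had no read in any Pcx L-/- library. The macrophage markers, another cell type with PPARγ, summed to 4260 to 6297 in controls and 5001 to 6503 in Pcx L-/- livers, and 1 of 8, Cd68, was higher (log2 fold change 0.86, SE 0.26, edgeR adjusted p = 0.0289) and none lower by edgeR, DESeq2 or limma, also at an unadjusted p under 0.05. The part of either cell type in the Pparg values was not tested.

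Ppargc1a (chr5:51454250-51567726, minus strand) had 457, 352, 539.6 and 950.4 normalized counts in the controls and 405, 438, 421 and 361 in the Pcx L-/- livers. The Pcx L-/- mice lay close together and inside the control range, whose top was control replicate 4, the library with the fewest reads. The log2 fold change was -0.49 (SE 0.25, n = 4 per genotype, edgeR adjusted p = 0.168), and it was -0.15 without control replicate 4 (adjusted p = 0.485). A transcript that codes for the fasting-induced coactivator therefore did not pass the threshold in either direction.

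Rxra (chr2:27676440-27762957, plus strand) encodes RXRα, the common partner of PPARα, PPARγ, PXR, CAR and LXRα. Normalized counts were 12503, 11978, 12324 and 15876 in the controls and 12460.1, 9609, 10316 and 9249 in the Pcx L-/- livers. Pcx L-/- replicate 1 sat among the controls and the other 3 lay below all of them. The log2 fold change was -0.34 (SE 0.15, edgeR adjusted p = 0.116). Hnf4a (chr2:163506808-163572910, plus strand) encodes HNF4α, the orphan receptor that maintains hepatocyte identity and binds as a homodimer. It had 11608, 12355, 17001 and 19345 normalized counts in the controls and 12335, 12258, 11047 and 12938 in the Pcx L-/- livers. The control mice split into a lower pair (replicates 1 and 2) and a higher pair (replicates 3 and 4), and the Pcx L-/- mice lay at or near the lower pair. Its log2 fold change was -0.31 (SE 0.18, edgeR adjusted p = 0.216). An antisense gene on the opposite strand, Hnf4aos, overlaps Hnf4a and held 1086 reads over the 8 libraries. Hnf4aos itself passed the threshold by edgeR, as lower in Pcx L-/- liver. No source used here gives the strand setting of the counting, so reads of such partners may not be told apart.

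Nr1i2 and Nr1i3 encode the xenobiotic receptors PXR and CAR, which induce cytochrome P450 enzymes, conjugating enzymes and transporters. Nr1i3 (chr1:171213970-171220701, plus strand) had 4849, 4422, 4239 and 1992 normalized counts in the controls and 2856, 1231, 1492 and 1599.5 in the Pcx L-/- livers. Control replicates 1 to 3 were above all Pcx L-/- mice, while control replicate 4 lay below Pcx L-/- replicate 1. Nr1i3 fell by 1.11 (SE 0.30, n = 4 per genotype, edgeR adjusted p = 0.0193), to 46.3% of control, the lowest log2 fold change of the 10. The call was lost when control replicate 1 or control replicate 3, or any of Pcx L-/- replicates 2, 3 and 4, was left out, with edgeR adjusted p between 0.0504 and 0.0621, and held without control replicate 4 (log2 fold change -1.33, adjusted p = 0.00575). Nr1i3 overlaps Tomm40l on the opposite strand, which held 1190 reads over the 8 libraries and had a log2 fold change of -0.41 (SE 0.26, edgeR adjusted p = 0.267).

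For Nr1i2 (chr16:38248323-38294824, minus strand) the normalized counts were 1889, 1932, 2665 and 1811 in the controls and 2235, 1118, 1444 and 1208 in the Pcx L-/- livers. Pcx L-/- replicate 1 was again within the control range and the other 3 were below it. The log2 fold change was -0.47 (SE 0.21, edgeR adjusted p = 0.129), and without Pcx L-/- replicate 1 it was -0.72 (adjusted p = 0.00437). Nr1h3 (chr2:91184061-91202834, minus strand), which encodes the oxysterol receptor LXRα of cholesterol efflux and lipogenesis, had 1694, 1619, 1654 and 2213 normalized counts in the controls and 1814, 1381, 1572 and 1526 in the Pcx L-/- livers. The ranges overlapped, and the log2 fold change of -0.19 (SE 0.13, edgeR adjusted p = 0.317) was the nearest to 0 of the 10. With library-size scaling it was 0.10 (adjusted p = 0.515).

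The steroid receptors were Nr3c1 and Esr1. Nr3c1 (chr18:39410545-39519421, minus strand) encodes the glucocorticoid receptor, through which fasting glucocorticoids act on gluconeogenic genes. It had 1376, 1564, 1470.4 and 1687 normalized counts in the controls and 1405, 891, 1103 and 877 in the Pcx L-/- livers. The overlap came from a single mouse, Pcx L-/- replicate 1, which was above control replicate 1. Nr3c1 fell by 0.51 (SE 0.15, n = 4 per genotype, edgeR adjusted p = 0.0293), to 70.2% of control, and the call was lost without any 1 of control replicates 2, 3 and 4 or Pcx L-/- replicates 2, 3 and 4, with edgeR adjusted p between 0.0570 and 0.0968. With library-size scaling it was at -0.24 (adjusted p = 0.154). Esr1 (chr10:4611593-5005614, plus strand), the oestrogen receptor ERα, had 339.6, 358, 412 and 543 normalized counts in the controls and 364, 235, 289 and 297 in the Pcx L-/- livers. Pcx L-/- replicate 1 lay inside the control range and the other 3 lay below it. Its log2 fold change was -0.47 (SE 0.17, edgeR adjusted p = 0.0614).

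2 mice recur in these values. Pcx L-/- replicate 1 lay closer to the controls than the other 3 Pcx L-/- mice for Pparg, Ppara, Rxra, Nr1i2, Nr1i3, Nr1h3, Nr3c1 and Esr1. It also had the largest sum of red cell markers, 69307 normalized counts beside 4747 to 16715 in the controls. In control replicate 4, the library with the fewest reads, the 10 transcripts summed to 48410.3 normalized counts, the highest of the controls, whose lowest was 37998. Hnf4a (19345) and Rxra (15876) made up most of that sum, and control replicate 4 was the lowest control for Pparg, Nr1i2 and Nr1i3. Without Pcx L-/- replicate 1, 6 of the 10 were lower and 1 higher, beside 17.8% and 16.7% of all genes (34.5% in all), and Nr1i2, Rxra (log2 fold change -0.44, adjusted p = 0.0194) and Esr1 (-0.59, adjusted p = 0.0192) joined the calls. With both mice left out the counts were again 6 lower and 1 higher, beside 19.6% and 19.9% of all genes (39.5% in all), and Nr1i3 had a log2 fold change of -1.63 (edgeR adjusted p = 2.8e-06).

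Mouse numbers in the sample descriptions fall into the 500s (control replicates 1 and 2 and Pcx L-/- replicate 1) and the 800s (the other 5), and nothing in the labels calls these series a batch. The lower and higher control pairs of Hnf4a are those of the 500s and of the 800s. Ppargc1a was likewise higher in both controls of the 800s than in those of the 500s, and the cause was not tested. Within the 5 mice of the 800s, 2 controls against 3 Pcx L-/-, 8 of the 10 were lower and 1, Pparg, was higher, beside 15.8% and 14.0% of all genes (29.8% in all). Pparg had a log2 fold change of 0.94 (edgeR adjusted p = 0.00331), Nr1i3 of -1.12 (0.00882) and Ppara of -0.67 (0.00595). Ppargc1a at -0.86 (0.0121), Nr1i2 at -0.83 (0.00604), Esr1 at -0.80 (0.00564) and Hnf4a at -0.59 (0.00890) passed the threshold there as well. Nr1h3 did not pass it, at -0.37 (edgeR adjusted p = 0.0868). The controls of this subset are replicates 3 and 4, and Pcx L-/- replicate 1 is not part of it. With control replicate 4 alone left out of the 8 mice, Ppargc1a was at -0.15 (edgeR adjusted p = 0.485) and Hnf4a at -0.17 (0.448). Esr1 (-0.32, 0.134) and Nr1i2 (-0.53, 0.119) did not pass the threshold in that fit either. The 500s hold a single Pcx L-/- mouse and gave no test. With the number series as a term over all 8 mice the counts were 3 lower and 1 higher, beside 13.4% of all genes in each direction (26.8% in all).

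**Figure D2:**
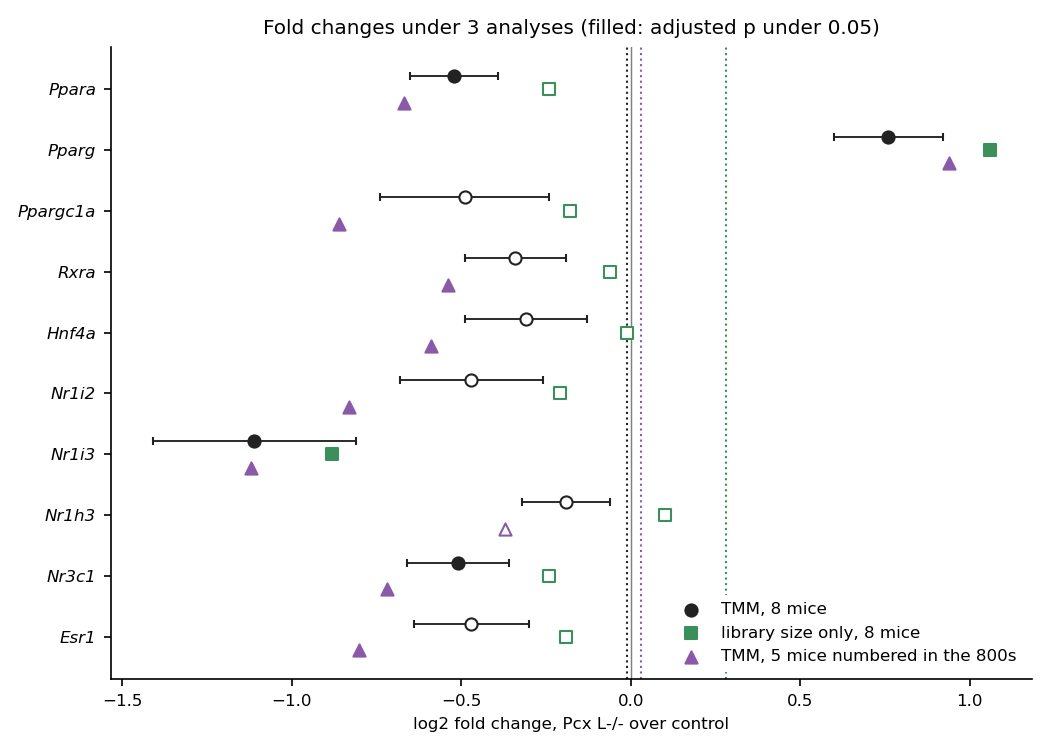
Log2 fold change, Pcx L-/- over control, of the 10 transcripts with TMM scaling over 8 mice (circles, bars are ± SE), with library-size scaling over 8 mice (squares) and with TMM scaling over the 5 mice of the 800s (triangles). Filled marks have an adjusted p under 0.05, and dotted lines mark the median of all genes tested in each analysis, at -0.01, 0.28 and 0.03; Pparg is the only filled mark right of 0 in each of the 3 analyses.

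Levels between genes were compared per length, in the deposited FPKM (reads scaled by transcript length and by library total). Hnf4a was the highest of 49 nuclear receptors by mean FPKM in both genotypes, at 183 ± 36.7 (SD, n = 4) in controls and 181 ± 17.3 in Pcx L-/- livers. Rxra ranked 2nd in both, at 142.6 ± 10.95 and 137 ± 8.65 FPKM. The ranges of Hnf4a and Rxra overlapped in the controls and not in the Pcx L-/- livers.

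Below them, Nr1i3 at 70.4 ± 25.5, Ppara at 53.2 ± 1.51, Nr1h3 at 48.0 ± 4.53 and Nr1i2 at 43.5 ± 9.28 FPKM formed the middle of the control order, and no neighbours among these 4 were separated by their ranges. In Pcx L-/- livers their order was Nr1h3 (51.3 ± 2.60), Ppara (45.1 ± 4.31), Nr1i3 (38.2 ± 11.4) and Nr1i2 (37.5 ± 9.07), again with overlapping neighbours. By rank of mean FPKM among the 49 receptors, Nr1i3 went from 3rd to 7th, Ppara from 5th to 6th, Nr1i2 from 7th to 8th and Nr1h3 from 6th to 4th.

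Nr3c1 stood lower, at 12.6 ± 0.738 FPKM in controls, apart from its neighbours on both sides, and at 10.7 ± 1.63 in Pcx L-/- livers. Pparg was at 4.67 ± 0.805 FPKM in controls, where its range overlapped that of Ppargc1a (4.66 ± 1.81). At 9.76 ± 2.45 FPKM in the Pcx L-/- livers its range overlapped that of Nr3c1 and no longer that of Ppargc1a (4.10 ± 0.521). Esr1 was the lowest of the 10 in both genotypes, at 3.45 ± 0.558 and 3.01 ± 0.324 FPKM.

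**Figure D3:**
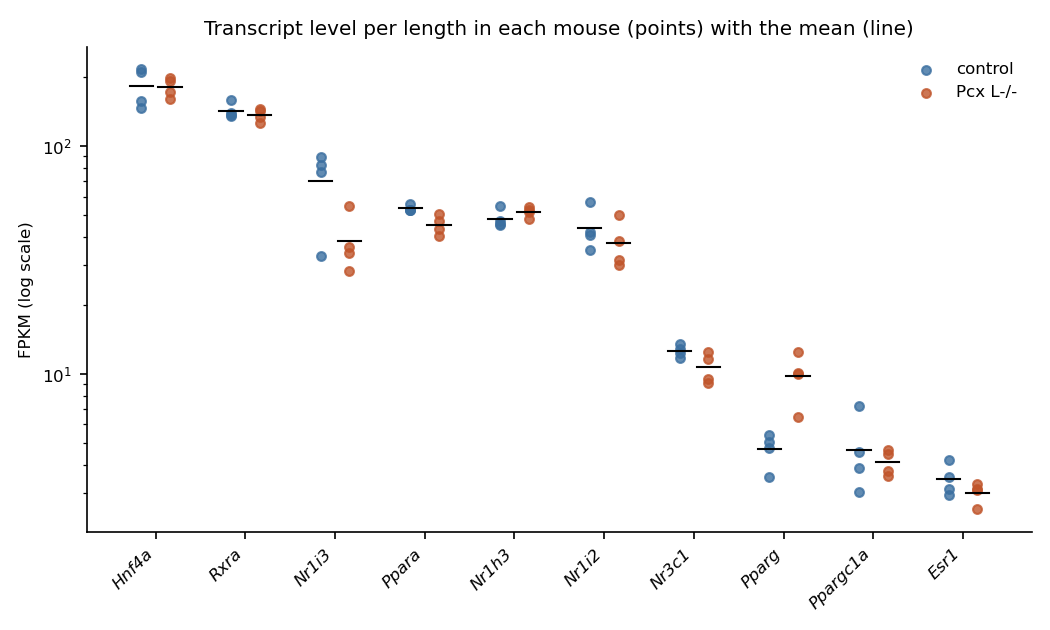
FPKM of the 10 transcripts in each mouse (points) on a log scale, ordered by the control mean, with a line at the mean of the 4 controls (blue) and of the 4 Pcx L-/- mice (orange). Hnf4a and Rxra are the highest in both genotypes, and Pparg is the transcript whose Pcx L-/- points lie apart from and above its control points.

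A ratio of FPKM within a library does not depend on how the library was scaled. The ratios given here were chosen after the values had been seen and carry no test. Pparg per Ppara was 9.06%, 10.3%, 9.58% and 6.39% in the controls and 13.9%, 30.9%, 20.2% and 23.0% in the Pcx L-/- livers. The genotypes did not overlap, with means of 8.82 ± 1.70% and 22.0 ± 7.07% (SD, n = 4 each). Relative to the shared partner Rxra, Pparg was at 3.32 ± 0.769% in controls and 7.18 ± 2.01% in Pcx L-/- livers, and Nr1h3 at 33.6 ± 0.563% and 37.5 ± 2.38%, both without overlap. Ppara per Rxra, at 37.4 ± 1.77% and 32.9 ± 2.31%, overlapped by 1 mouse on either side, since control replicate 4 (34.9%) was below Pcx L-/- replicate 3 (35.0%). Nr1i3 per Rxra was lowest of all 8 mice in control replicate 4 (20.7%), just below the Pcx L-/- mice (21.1% to 37.7%), while the other 3 controls were between 56.6% and 63.8%. Nr1i3 per Nr1i2, the ratio of the xenobiotic receptors, was 162 ± 57.0% in controls and 101 ± 11.9% in Pcx L-/- livers, with overlap.

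**Figure D4:**
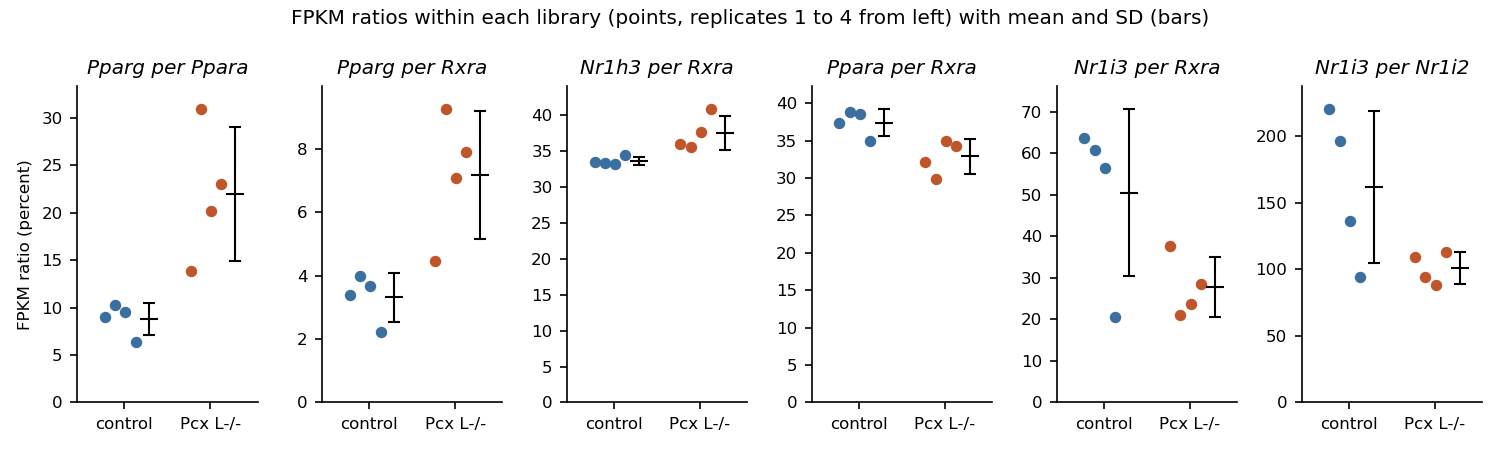
Ratio of FPKM between pairs of transcripts in each library, in percent, with points for the 4 control (blue) and 4 Pcx L-/- (orange) mice in replicate order and bars for the mean ± SD. Axes start at 0; Pparg per Ppara, Pparg per Rxra and Nr1h3 per Rxra are the pairs whose genotypes do not overlap.

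The rest of the nuclear receptor family was set beside these 10. Of 40 other receptors, 30 passed the filter on low counts, 4 of them were higher and 7 lower in Pcx L-/- liver, beside 14.1% and 13.5% of all genes, and their median log2 fold change was -0.27, beside -0.01 for all genes. Among the higher ones were Nr1d1 (REV-ERBα, the haem-binding clock repressor) at 1.13 (SE 0.21, edgeR adjusted p = 0.00348), Rxrb (RXRβ, a paralogue of Rxra) at 0.44 (SE 0.10, 0.0112) and Nr4a2 at 1.81 (SE 0.50, 0.0204). Nr4a2, an immediate early orphan receptor, stood at 2.73 to 34.3 normalized counts per mouse, so few reads carry its value. Among the lower ones, Esrrg (ERRγ, a partner of PGC-1α) had 92.9, 103, 104 and 193 normalized counts in controls and 75.5, 34.3, 42.8 and 48.6 in Pcx L-/- livers, without overlap. It fell by 1.28 (SE 0.30, edgeR adjusted p = 0.00958). The thyroid hormone receptors Thrb and Thra fell by 0.83 (SE 0.23, 0.0199) and 0.41 (SE 0.13, 0.0332), and Nr2f2 (COUP-TFII), Nr2f6 and the mineralocorticoid receptor Nr3c2 fell by 0.67, 0.37 and 0.47. Nr1d1, Rxrb, Nr2f2 and Esrrg kept the call without any 1 mouse, while Thra, Thrb, Nr2f6, Nr3c2 and Nr4a2 lost it without at least 1, with edgeR adjusted p of up to 0.0934, 0.0679, 0.0505, 0.137 and 0.0690. With library-size scaling 8 receptors were higher and 4 lower, beside 29.7% and 6.61% of all genes. Thra (log2 fold change -0.13, edgeR adjusted p = 0.511), Nr2f6 (-0.09, 0.582) and Nr3c2 (-0.19, 0.443) lost the call with that scaling.

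Coregulators carry the receptors' signal to chromatin. Of 23 listed, 22 were tested, 2 were higher and 4 lower, beside 14.1% and 13.5% of all genes, with a median log2 fold change of -0.16. The acetyltransferase Kat2a (GCN5), which acetylates PGC-1α, rose by 0.60 (SE 0.12, edgeR adjusted p = 0.00506) while its paralogue Kat2b (PCAF) fell by 0.57 (SE 0.11, 0.00437), and neither overlapped between genotypes. The arginine methyltransferase Carm1 rose by 0.40 (SE 0.12, 0.0317). The acetyltransferase Ep300 fell by 0.42 (SE 0.14, 0.0397). Lpin1, the phosphatidate phosphatase lipin that also coactivates PPARα with PGC-1α, had 3854, 3678, 9261 and 16309 normalized counts in controls and 1976, 3867, 3179 and 2430.0 in Pcx L-/- livers, and fell by 1.53 (SE 0.43, adjusted p = 0.0234). Its 2 highest control mice, replicates 3 and 4, were also the highest for Hnf4a and Ppargc1a and are the controls numbered in the 800s. Kat2a and Kat2b kept the call without any 1 mouse, while Ep300, Carm1 and Lpin1 lost it without at least 1, with edgeR adjusted p of up to 0.127, 0.101 and 0.0730. With library-size scaling Kat2b (log2 fold change -0.29, edgeR adjusted p = 0.0879) and Ep300 (-0.12, 0.508) lost the call.

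Textbook targets of 8 of the 10 were then counted, a description of transcripts that many other factors also act on. Of 106 different genes listed, 100 were tested, 15 were higher and 34 lower, with a median log2 fold change of -0.35, beside 14.1% and 13.5% of all genes. With library-size scaling 18 were higher and 26 lower, beside 29.7% and 6.61% of all genes. Of 27 PPARα targets tested, 4 were higher and 9 lower, beside 14.1% and 13.5% of all genes. Fgf21, the fasting hepatokine, rose by 4.23 (SE 0.52, edgeR adjusted p = 0.000735) from 13.6 to 49.4 normalized counts in controls to 316 to 1164 in Pcx L-/- livers, and the thioesterase Acot2 by 2.65 (SE 0.29, 0.000420). Acot2 has near-identical neighbours that can share its reads, so its value is uncertain. The pantetheinase Vnn1 fell by 1.11 (SE 0.27, 0.0119).

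Of 7 PPARγ targets tested, 3 were higher and none was lower by edgeR, DESeq2 or limma, also at an unadjusted p under 0.05, with a median of 0.44. Of all genes, 14.1% were higher and 13.5% lower by edgeR. The lipid droplet protein Cidec had 194, 294, 334 and 285 normalized counts in controls and 2077, 3548, 2831 and 3617 in Pcx L-/- livers. It rose by 3.45 (SE 0.22, edgeR adjusted p = 2.18e-05), or 10.9-fold, with no overlap. Plin2, a droplet coat protein also listed under PPARα, rose by 1.47 (SE 0.23, 0.00152). Plin4 at 0.02 (SE 0.20, adjusted p = 0.950) and Fabp4 did not pass the threshold.

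Among 14 PGC-1α targets 1 was higher and 4 lower, beside 14.1% and 13.5% of all genes, with a median of -0.28. The kinase Pdk4, which restrains pyruvate dehydrogenase, was at 1.31 (SE 0.45, edgeR adjusted p = 0.0496) and rested mostly on Pcx L-/- replicate 2, at 472 normalized counts beside 73.6 to 182 in the other 3. Alas1, the first enzyme of haem synthesis, fell by 1.06 (SE 0.35, 0.0430), and Cycs, cytochrome c, was at 0.21 (SE 0.11, 0.182). Pdk4 and Alas1 lost the call without at least 1 mouse, with edgeR adjusted p of up to 0.169 and 0.121.

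Of 9 PXR targets tested, 2 were higher and 3 lower, and of 11 CAR targets 3 were higher and 4 lower. Beside these stand 14.1% higher and 13.5% lower of all genes. Cyp3a11, the classic PXR-induced P450, fell by 1.19 (SE 0.29, edgeR adjusted p = 0.0124) and the organic anion transporter Slco1a4 by 1.20 (SE 0.31, 0.0158). The transporter Abcb1a rose by 1.41 (SE 0.18, 0.000820) and the glutathione transferase Gsta1 by 1.98 (SE 0.49, 0.0133), at 3.39 to 61.1 normalized counts per mouse. In the CAR list Cyp2c54 fell by 2.52 (SE 0.32, 0.000772) and Cyp2c50 by 2.39 (SE 0.35, 0.00119), 2 members of a family of near-identical genes whose reads can be split between copies. The efflux pump Abcc4 rose by 3.74 (SE 0.49, 0.000846) and Cyp2c55 by 1.82 (SE 0.59, 0.0402), the latter at 0 to 28.0 normalized counts per mouse. Slco1a4 and Cyp2c55 lost the call without at least 1 mouse, with edgeR adjusted p of up to 0.0506 and 0.108.

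Of 12 LXRα targets, which serve sterol disposal and lipogenesis, 1 was higher and 5 lower, beside 14.1% and 13.5% of all genes. The lipogenic factor Srebf1 fell by 1.38 (SE 0.27, edgeR adjusted p = 0.00451) and the sterol transporter Abcg5 by 1.24 (SE 0.34, 0.0195), the phospholipid enzyme Lpcat3 rose by 0.45 (SE 0.10, 0.00769), and Cyp7a1, the rate-limiting enzyme of bile acid synthesis, was at -0.03 (SE 0.46, 0.973). Abcg5 lost the call without at least 1 mouse, with an edgeR adjusted p of up to 0.0646. Of 12 HNF4α targets none was higher by edgeR, DESeq2 or limma, also at an unadjusted p under 0.05. By edgeR 6 were lower, beside 13.5% of all genes. All 12 log2 fold changes in this list were below 0 with TMM scaling, beside 50.6% of all genes, and the median was -0.55. The hepatocyte markers, which share Apob and Ttr with this list, had a median of -0.63. All 7 of those tested were also below 0. Otc, of the urea cycle, fell by 1.61 (SE 0.27, 0.00237) and the bile acid hydroxylase Cyp8b1 by 1.37 (SE 0.24, 0.00258).

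Of 14 glucocorticoid receptor targets, 3 were higher and 4 lower, beside 14.1% and 13.5% of all genes. The kinase Sgk1 rose by 2.14 (SE 0.37, edgeR adjusted p = 0.00254) and the metallothionein Mt2 by 1.48 (SE 0.20, 0.000971). Tdo2, of tryptophan breakdown, fell by 1.30 (SE 0.26, 0.00497) and the receptor's cochaperone Fkbp5 by 0.91 (SE 0.24, 0.0163). Fkbp5 lost the call without at least 1 mouse, with an edgeR adjusted p of up to 0.0524.

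**Figure D5:**
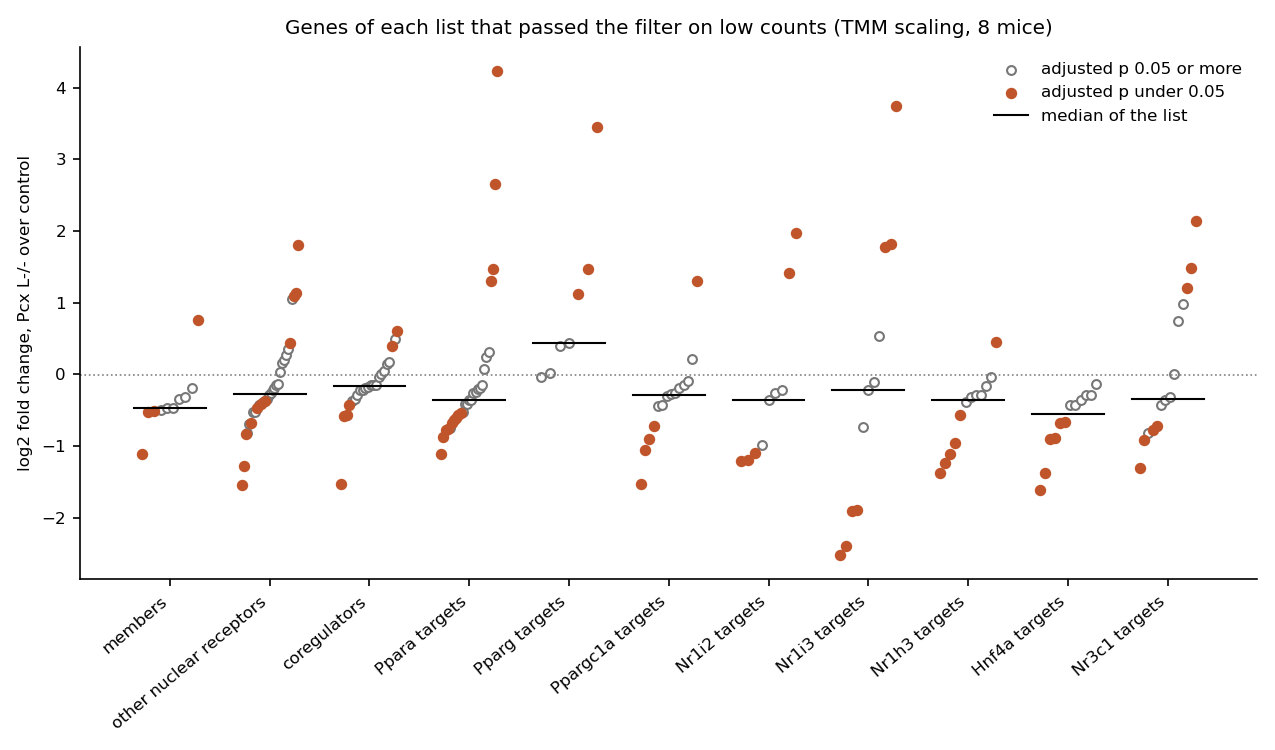
Log2 fold change, Pcx L-/- over control, of each listed gene that passed the filter on low counts, 1 column per list, with filled points for an adjusted p under 0.05, a line at the median of the list and a dotted line at the median of all genes (-0.01). The PPARγ targets are the 1 column whose median is above 0 (0.44), and the HNF4α targets have the lowest median of the columns shown (-0.55).

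The genes with the most similar pattern to each of the 10 transcripts were taken from 52 other receptors and coregulators, by Pearson's r of log2 normalized CPM over the 8 libraries. The libraries share genotype groups and scaling factors, so these values describe likeness only and carry no p. Ppara was closest to Esrrg (r = 0.96) and Nr2f2 (0.95), and Pparg to Nr1d1 (0.95) and Rxrb (0.95). Ppargc1a was closest to Ncoa3 (0.99) and Tbl1x (0.94), all 3 of them highest in control replicate 4. Nr1i3 was closest to Hdac3 (0.93) and Nr1i2 to Rara (0.90), and Esrrg was among the 2 closest to Nr3c1 (0.91). Rxra was closest to Esrrg (0.94) and Esrra (0.94), Esr1 to Esrrg (0.96) and Thrb (0.92), Nr1h3 to Nr5a2 (0.89) and Nr6a1 (0.88), and Hnf4a to Lpin1 (0.88) and Ncoa3 (0.86).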

How the data were processed

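Total RNA from flash-frozen liver of 8 mice, 1 library each, was sequenced by a company, and the authors aligned the reads to mm10 (GRCm38). The authors deposited raw read counts per Ensembl gene, and also deposited FPKM, of which 100% of 142384 values above 0 equal the count divided by gene length and library total within a relative tolerance of 1e-06. The submitters' processing notes name STAR 2.5, HTSeq 0.6.1 and DESeq2. No source used here gives the strand setting or the annotation release. The study's test was the DESeq2 Wald test with apeglm shrinkage. Symbols were taken from GENCODE M21 (34490 of 35275 identifiers).

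Counts were tested with edgeR 4.0.16 in R 4.3.3 (TMM factors, filterByExpr with a minimum count of 10 and total of 15, genotype as the only term). A standard error is the log2 fold change over the square root of F and is approximate. The fit had 6 residual degrees of freedom and a common biological variation of 0.181 (coefficient of variation). Replicates of a genotype correlated at Spearman's rho 0.976 to 0.993 across genes, and no 2 libraries were identical. Each library came from a mouse of its own. Alternatives were DESeq2 1.42.0 with and without apeglm 1.24.0, DESeq2 size factors, library-size scaling, no filter, limma 3.58.1 on log2(FPKM + 1) and log2(FPKM + 0.1), the replicate number or mouse number series as a term, each mouse left out, and the 800s alone. Leaving out control replicate 4 and Pcx L-/- replicate 1 together, and counting calls within the 800s, were chosen after seeing the data. The steps were tested on simulated data, where they recovered 38.8% of 1.5-fold, 82.1% of 2-fold and 100% of 4-fold changes. A 1.5-fold change was therefore often missed.

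The 10 transcripts and all lists were chosen with earlier results of these data known. Target, receptor, coregulator and marker lists came from general knowledge. Named genes were the 10, the called receptors and coregulators, the 2 highest and 2 lowest of each target list, the 2 most alike per transcript, and Pcx, except some genes that are not reported here. Cell type marker lists were described by counts and sums. Of those not given above, 6 endothelial, 6 stellate and 5 red cell markers tested held no call (edgeR, 2, 0 and 0 at an unadjusted p under 0.05; DESeq2 and limma 0 calls), 1 of 5 cholangiocyte markers was lower, and no muscle marker passed the filter. Promoter windows came from the RefSeq table of GRCm38.p6, and that of Nr3c1 was not used here. Prmt1 and the hepatocyte marker Tf had no row used here.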

Additional observations from a re-analysis of the deposited data

Results flagged for a closer look

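Within the 4 mice of a genotype, a mouse was singled out where its gap to the next mouse was large against the range of the group by Dixon's criterion. Chance gives about 1 in 20 groups, and 16 of the 120 groups of named genes met it (13.3%). The groups share 8 libraries and are not independent.

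Among the 10 transcripts, control replicate 4 stood above the other controls for Ppara (3858 normalized counts, others 3238 to 3301), Nr1h3 (2213, others 1619 to 1694) and Rxra (15876, others 11978 to 12503). Control replicate 3 stood above the others for Nr1i2 (2665, others 1811 to 1932). Control replicate 4 was also high for Esrrg (193) and Tbl1x (1183), control replicate 3 for Plin4 (879), and control replicate 2 for Lpcat3 (1489).

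Pcx L-/- replicate 1 stood above the other Pcx L-/- mice for Nr2f2 (639 normalized counts, others 494 to 500.02), Alas1 (15947), Cyp2c54 (1731), Cyp2c50 (3741), Abcg5 (1736), Otc (2986), Tdo2 (36734) and Esrra (1154). For each of these except Esrra its value lay between the other Pcx L-/- mice and the mean of the controls. It lay above the control mean for Esrra.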

How the results depend on the processing

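The number of the 10 transcripts that were lower depended on the scaling and on single mice. All genes together had a median of -0.01 with TMM and 0.28 with library-size scaling (log2 fold change). With library-size scaling 1 transcript was lower, 8 other receptors were higher and 4 lower, and 4 coregulators were higher and 1 lower. Of all genes, 29.7% were higher and 6.61% lower with that scaling. With limma on log2(FPKM + 1) or log2(FPKM + 0.1), 0 of the 10 were lower (2 at an unadjusted p under 0.05), 7 other receptors were higher and 3 lower, 0 coregulators were lower (2 unadjusted) and 22 targets were lower, beside 6.24% to 6.25% of all genes lower and 28.7% to 29.0% higher. Leaving out each mouse in turn gave 0 to 6 transcripts lower, 3 to 11 other receptors lower, 1 to 2 coregulators higher, 1 to 5 lower, and 19 to 53 targets lower, while 7.11% to 17.8% of all genes were lower and 8.63% to 16.7% higher. The 0 arose without Pcx L-/- replicate 4 (edgeR; 4 at an unadjusted p under 0.05), and the 6 without Pcx L-/- replicate 1. Pparg was higher in every alternative. In the 800s 8 transcripts were lower, beside 15.8% of all genes. With control replicate 4 and Pcx L-/- replicate 1 both left out, 6 were lower, and 13 other receptors were lower, 5 coregulators higher and 54 targets lower. Of all genes, 19.6% were lower and 19.9% higher in that fit. With the mouse number series as a term, 1 coregulator was higher, beside 13.4% of all genes.

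Same-numbered control and Pcx L-/- libraries deviated from their genotype means with correlations of 0.1005, -0.1311, -0.1012 and -0.07032 across genes. Differently numbered ones had correlations between -0.1344 and 0.1196. Whether same-numbered mice were paired or shared a litter cannot be told from these values. With the replicate number as a block, 4 other receptors were lower and 1 coregulator higher, beside 11.3% and 11.2% of all genes. The 10 transcripts kept their counts, 1 higher and 3 lower.

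Of 1140 values of single genes under an alternative, 944 kept direction and side of the threshold, 128 lost the call, 23 gained it and 45 changed sign. None of those 45 was a call under the main analysis, and the cause was not tested. With library-size scaling the log2 fold change was 0.10 for Nr1h3, 0.23 for Fabp4, 0.30 for Cyp7a1, 0.02 for Ncoa3, 0.14 for Tbl1x, 0.04 for Rara, 0.10 for Hdac3, 0.09 for Nr5a2 and 0.14 for Nr6a1. With limma on log2(FPKM + 1) these were 0.10, 0.31, 0.29, 0.02, 0.13, 0.04, 0.10, 0.08 and 0.09 in that order, and on log2(FPKM + 0.1) 0.10, 0.35, 0.29, 0.03, 0.14, 0.04, 0.11, 0.09 and 0.14. Fabp4 was at 0.23 in the 800s, 0.11 with the number series, 0.02 with the block, 0.05 without Pcx L-/- replicate 2 and 0.15 without control replicate 2. Plin4 was at -0.13 in the 800s, -0.06 with the number series, -0.13 without Pcx L-/- replicate 2 and -0.03, -0.08 and -0.05 without control replicates 1, 2 and 4. Cyp7a1 was at 0.33 with both mice left out, 0.73 in the 800s, 0.04 with the block, 0.25 without Pcx L-/- replicate 1, and 0.28 and 0.03 without control replicates 1 and 4, and Nr6a1 was at 0.04 without control replicate 4. Over the fits without 1 mouse Fabp4 ranged from -0.25 to 0.15, Plin4 from -0.13 to 0.26, Cyp7a1 from -0.33 to 0.28 and Nr6a1 from -0.27 to 0.04. Transcripts with few reads, such as Nr4a2, Gsta1 and Cyp2c55, are limited by depth.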
